A study of Mus musculus with 3072 samples.

Results

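The genes of the respiratory chain were examined in microglia, the resident macrophages of the brain: every row of the count table whose symbol starts with one of the families Ndufa, Ndufb, Ndufc, Ndufs, Ndufv, Sdh, Uqcr, Cox4i, Cox5, Cox6, Cox7, Cox8, Atp5, mt-Nd, mt-Co, mt-Atp or mt-Cytb. Rows named as pseudogenes (7) were left out. Of the 29474 genes in the table, 94 of those chosen lie in the nuclear genome, 79 as subunits and 15 as assembly factors or related genes (Ndufaf, Sdhaf, Cox7a2l, Atp5s and Atp5sl), and 10 lie on mitochondrial DNA. Reads were found for 89 nuclear and 8 mitochondrial genes. A gene is called measured below when it had a mean of at least 10 RPM (reads per 1e6 counted reads) over the groups and a read in at least 10% of all cells, which held for 75 nuclear and 7 mitochondrial genes and for 5975 genes in all.

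The respiratory chain moves electrons from NADH and succinate to oxygen through complexes I to IV of the inner mitochondrial membrane and pumps protons, and complex V, the ATP synthase, uses the proton gradient to make ATP. Most subunits are coded in the nucleus and imported, while a few core subunits of complexes I, III, IV and V are coded by mitochondrial DNA, which is transcribed within the organelle as long precursors from both strands and cut into single messenger and ribosomal RNAs. Microglia are known to use both oxidative phosphorylation and glycolysis, and their activation near amyloid plaques has been tied to a shift between them.

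In all, 1713 live CD11b+ cells of male mice were sorted singly and read with a modified SmartSeq2 protocol, which copies polyadenylated RNA and carries no molecular identifiers. The groups were cortex (18.2% of the cells) and hippocampus (15.9%) of APP/PS1 mice (APPswe/PS1dE9 transgenes, amyloid plaques with age) at 17 months, cortex (9.87%) and hippocampus (18.7%) of APP/PS1-ApoeKO mice at 18 months, which carry the same transgenes without a working Apoe gene, and cortex of C57BL/6 (19.03%) and of C57BL/6-ApoeKO mice (18.3%) at 18 months. The promoter of the transgenes is not given in the labels, and the 18-month APP/PS1 groups were not analysed here. Animals are not named in the labels. Each group therefore counts as 1 sample, differences between 2 groups have no replicate check, and cells were summed within a group. The labels divide wells by sequencing lane and by a plate number from 1 to 4, which were used as technical parts of a group, not as replicates. The plate number does not always follow the plate given in a well's title. Whether it marks a physical plate is not known, so its parts may be no more than a division of the wells. Of the 7 pairs of groups compared below, C57BL/6 and C57BL/6-ApoeKO cortex shared both of their lanes, as did both APP/PS1 tissues. The remaining 5 pairs shared 0 lanes: the knockout in either tissue of APP/PS1 mice, amyloid with and without Apoe, and the tissues of APP/PS1-ApoeKO mice. In these the comparison cannot be told apart from lane, and APP/PS1 mice were also a month younger than those of the other genotypes. APP/PS1-ApoeKO cortex came from 1 lane and plate numbers 3 and 4.

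The median cell had 615541 reads in APP/PS1 cortex, 581149 in APP/PS1 hippocampus, 445290 and 442917 in APP/PS1-ApoeKO cortex and hippocampus, 765703 in C57BL/6 and 689276 in C57BL/6-ApoeKO cortex, so that both APP/PS1-ApoeKO groups were the shallowest. Apoe, the targeted gene, was at 13406 and 11919 RPM in APP/PS1 cortex and hippocampus, 485 RPM in C57BL/6 cortex and 0.0669, 0.745 and 2.96 RPM in the knockout groups. Summed markers of homeostatic microglia (8 genes, among them P2ry12 and Tmem119) lay between 41140 and 52051 RPM in every group. Those of border-associated macrophages stayed at or under 8.92 RPM (6 genes, 1 without reads), of neutrophils at or under 0.575 RPM, of T or NK cells at or under 2.31 RPM (2 of 5 without reads) and of neurons at or under 16.2 RPM (1 of 6 without reads). Astrocyte markers summed to 293.6 to 379.4 RPM, those of oligodendrocytes to 62.5 to 104.97 RPM and those of endothelial or mural cells to 5.43 to 28.7 RPM; their part in the results was not tested. No 2 cells held identical counts.

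The sequences of the mitochondrial genes are shown first because they bear on which of them could be counted. Long stretches of mouse mitochondrial DNA stand as copies in the nuclear genome, and a read from such a stretch matches both places. In the GENCODE transcripts for GRCm38, 100% of the 50-base windows of mt-Co2 (chromosome M, 7013 to 7696, + strand), a core subunit of complex IV, also occur in a transcript of another gene, mostly Gm28661 on chromosome 1 (24614885 to 24615565, - strand). The 681 bases that could be laid side by side had 0 differences. The opening 60 bases of both are:

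mt-Co2: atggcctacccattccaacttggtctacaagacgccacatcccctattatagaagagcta
Gm28661: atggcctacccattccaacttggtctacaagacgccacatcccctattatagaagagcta

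For mt-Co1 (chromosome M, 5328 to 6872, + strand), the catalytic subunit of complex IV, 51.1% of windows were shared. Its copy Gm29216 on chromosome 1 matches 492 bases at its end apart from 6. Bases 1054 to 1113 of mt-Co1, counted from the start of its transcript, and the same stretch of the copy are shown with the differences T1056A, C1057T, A1059G, A1060G, C1062A and A1066T in capitals:

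mt-Co1: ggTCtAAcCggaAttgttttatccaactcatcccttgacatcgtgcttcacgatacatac
Gm29216: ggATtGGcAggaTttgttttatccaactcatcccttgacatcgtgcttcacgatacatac

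The 10 mitochondrial genes fell along this scale in an uneven way. The fully shared mt-Co2 and mt-Co3 (99.9% of windows) were listed at 0 in all 1713 cells, and mt-Nd3 (97.99%) had a mean level of 25.4 RPM per kb of exon. In contrast, mt-Cytb, mt-Nd1 and mt-Nd6, with 0% of windows shared, had 2138, 1691 and 142.8 RPM per kb. mt-Nd5 (7.61% shared) had 885, mt-Nd2 (8.19%) had 258.6, mt-Nd4 (62.2%) had 276.5 and mt-Co1 had 1742 RPM per kb. The copies themselves held few reads: 18 for Gm28661, 44 for Gm28437, the copy of mt-Co3, 39 for Gm28438, that of mt-Nd3, and 21 for Gm28439, that of mt-Nd4. The sources used here do not give how reads with several matches were counted, and the part of shared sequence in these levels was not tested. The genes mt-Atp6 and mt-Atp8 of complex V were not analysed here.

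**Figure D1:**
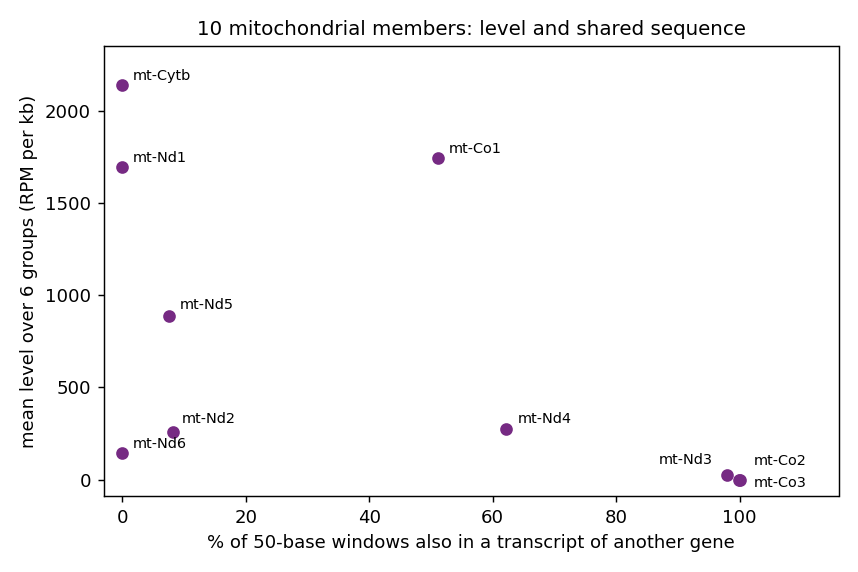
Mean level over the 6 groups (RPM per kb of exon) of the 10 mitochondrial genes against the percentage of their 50-base windows that also occur in a transcript of another gene. The genes with 97.99% or more shared windows lie at or under 25.4 RPM per kb, while genes with 0% range from 142.8 to 2138.

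Shared sequence was rarer among the nuclear genes: 43 of the 93 found in the annotation shared no window with another gene, and 2 shared at least 50%, Ndufaf2 and Sdhaf1. 5 nuclear genes were listed at 0 in all cells. Ndufs3, a core subunit of complex I, shared 39.7% of its windows, mostly with Gm12251, and Uqcrc1, a core subunit of complex III, shared 0%. The remaining 3, Cox4i2, Cox7a1 and Cox8b, are isoforms known from lung or muscle. A listing at 0 in a table with 8367 genes without reads cannot be read as absence from the cells.

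Per length, the mitochondrial genes stood far above the nuclear ones. The median of the 7 measured mitochondrial genes was 885 RPM per kb, against 37.1 RPM per kb for the measured nuclear genes with a length. The highest nuclear levels belonged to complex IV, with Cox8a at 194.9, Cox6b1 at 147.3 and Cox4i1 at 144.5 RPM per kb, and to complex I with Ndufa2 at 141.9 RPM per kb, an accessory subunit. The ATP synthase followed with Atp5b, the catalytic beta subunit, at 121.1, Atp5c1 at 103.3 and Atp5a1 at 100.3 RPM per kb. Complex III was led by Uqcr11 (61.3), the Rieske iron-sulfur protein Uqcrfs1 (59.1) and Uqcrh (57.6), and complex II by Sdhd (74.6), Sdhb (60.3) and Sdha (49.3). Among assembly factors and related genes the highest were Cox7a2l (56.5), which takes part in supercomplexes of the chain, Ndufaf8 (23.8) and Ndufaf7 (15.4).

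Isoforms were read unevenly. Cox4i1 had a read in 71.7% of cells, while its low-oxygen isoform Cox4i2 was listed at 0. Cox6a1 was at 90.5 RPM, Cox6b1 at 104.3 RPM and Cox6b2, the testis form, at 0.988 RPM with reads in 1.17% of cells. Cox7a2 was at 66.2 RPM and Cox8a at 120.7 RPM, against listings at 0 for Cox7a1 and Cox8b. Of the 3 genes that code the identical c-ring protein of complex V, Atp5g3 was at 39.4, Atp5g1 at 36.7 and Atp5g2 at 17.8 RPM. Ndufa4, now counted with complex IV, was at 56.1 RPM. In the values by complex in this report it was grouped by its symbol, with complex I. Cox8c and Ndufa4l2 were not analysed here.

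As a whole, the mitochondrial messenger RNAs differed more between groups than the nuclear genes did. The 10 mitochondrial genes took 0.819% of reads in APP/PS1 cortex, 0.730% in APP/PS1 hippocampus, 1.18% in APP/PS1-ApoeKO cortex, 0.965% in APP/PS1-ApoeKO hippocampus, 0.896% in C57BL/6 cortex and 0.870% in C57BL/6-ApoeKO cortex. The 94 nuclear genes took 0.558%, 0.532%, 0.574%, 0.521%, 0.608% and 0.617% in the same order. The highest mitochondrial share was therefore in APP/PS1-ApoeKO cortex and the lowest in APP/PS1 hippocampus, while the nuclear shares were highest in both C57BL/6 groups. Over plate numbers the mitochondrial share ran from 0.802% to 0.832% in APP/PS1 cortex and from 1.16% to 1.20% in APP/PS1-ApoeKO cortex. It ran from 0.713% to 0.766% in APP/PS1 hippocampus and from 0.901% to 1.02% in APP/PS1-ApoeKO hippocampus. The parts with and without Apoe did not overlap in either tissue of APP/PS1 mice. In C57BL/6 cortex (0.844% to 0.945%) and C57BL/6-ApoeKO cortex (0.809% to 1.00%) they did. The nuclear share did not overlap between cortex with and without amyloid. It ran from 0.510% to 0.574% in APP/PS1 and from 0.586% to 0.639% in C57BL/6 cortex. Without Apoe it ran from 0.574% to 0.575% in APP/PS1-ApoeKO and from 0.596% to 0.636% in C57BL/6-ApoeKO cortex. With Apoe this was near the background: the median log2 ratio with amyloid was -0.14 for nuclear genes and -0.11 for all measured genes. Without Apoe these medians were -0.14 and 0.05. How many of all measured genes had parts that did not overlap was not counted.

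The mitochondrial share divided by the nuclear share was 1.47 in APP/PS1 cortex and 1.37 in APP/PS1 hippocampus, 2.06 and 1.85 in the same tissues of APP/PS1-ApoeKO mice, and 1.47 and 1.41 in C57BL/6 and C57BL/6-ApoeKO cortex. The ribosomal RNAs of the mitochondrion, mt-Rnr1 and mt-Rnr2, did not follow the same order, with 1.602%, 1.34%, 1.47%, 1.29%, 1.39% and 1.32% of reads in the order above. Over plate numbers they ran from 1.59% to 1.67% in APP/PS1 cortex and from 1.43% to 1.49% in APP/PS1-ApoeKO cortex. These were lower without Apoe and did not overlap, while in hippocampus the plate numbers overlapped. The share of all ribosomal RNA, at 13.9% and 13.02% in APP/PS1 cortex and hippocampus, was 8.24% and 10.95% in the APP/PS1-ApoeKO tissues and 10.3% in both C57BL/6 groups. Malat1, a long RNA kept in the nucleus, was at 0.189%, 0.182%, 0.419%, 0.283%, 0.289% and 0.279%. The share of Malat1 was thus also highest in APP/PS1-ApoeKO cortex, and the groups with the highest mitochondrial shares in APP/PS1-ApoeKO mice were also the shallowest per cell. The parts of Malat1 and of depth in the mitochondrial difference were not tested. Further APP/PS1-ApoeKO cortex cells from another lane, left out of the groups because their labels hold no read number, had 1.05% of reads in the mitochondrial and 0.522% in the nuclear genes, with 14.4% ribosomal RNA and 0.345% Malat1.

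**Figure D2:**
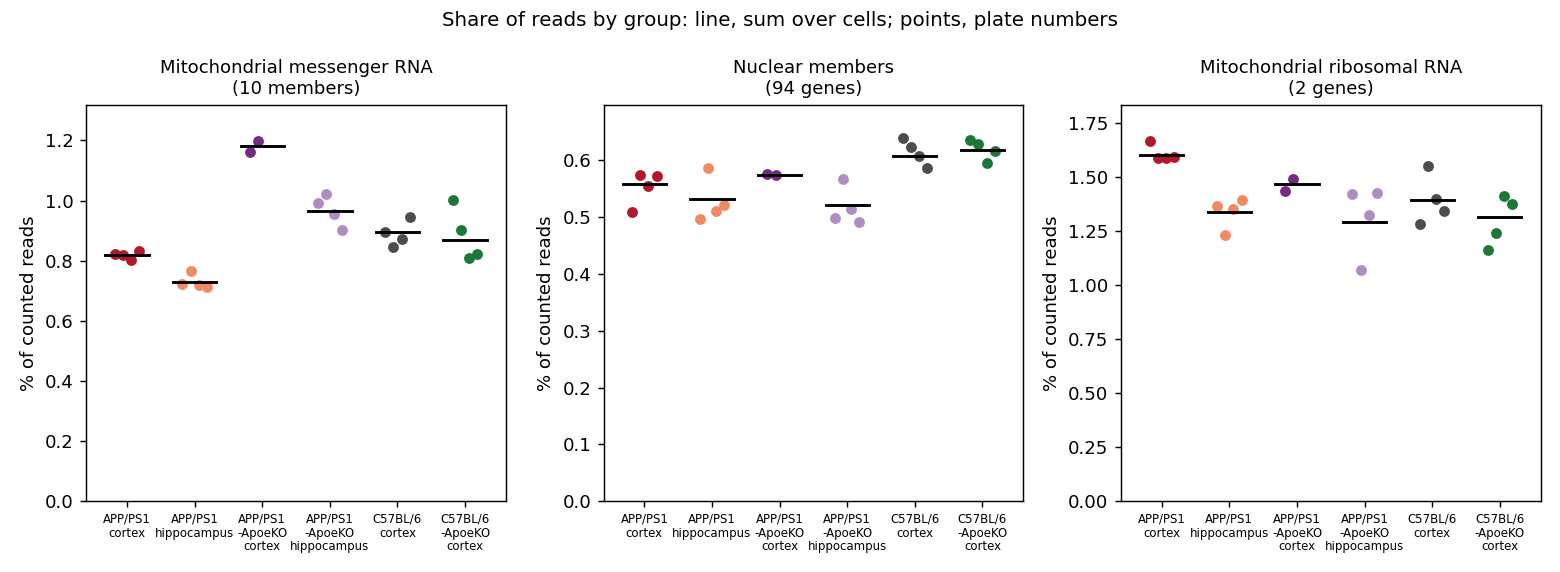
Share of counted reads (%) in the 10 mitochondrial messenger RNA genes, the 94 nuclear genes and the 2 mitochondrial ribosomal RNAs, by group; points are plate numbers within a group and lines the sum over its cells. APP/PS1-ApoeKO cortex (1.18%) and hippocampus (0.965%) lie above APP/PS1 cortex (0.819%) and hippocampus (0.730%) in mitochondrial messenger RNA. In the other panels the APP/PS1-ApoeKO groups do not both lie above the APP/PS1 groups. Mitochondrial ribosomal RNA is lower in APP/PS1-ApoeKO than in APP/PS1 cortex, and nuclear shares in cortex are lower with amyloid than without. With Apoe the latter is near the background, at a median log2 ratio of -0.14 for nuclear and -0.11 for all measured genes. Without Apoe these are -0.14 and 0.05.

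The loss of Apoe in amyloid-bearing mice was read by setting the APP/PS1-ApoeKO groups against the APP/PS1 groups. In cortex 7 of 7 measured mitochondrial genes were higher in the knockout, 5 of them at least 1.5-fold, where 22% of all measured genes were at least 1.5-fold higher; with TMM scaling 3 were at least 1.5-fold higher, mt-Co1 turned lower (log2 ratio -0.15) and the other 6 stayed higher. Their median log2 ratio was 0.82, against 0.17 for all measured genes. mt-Nd6, a complex I subunit and the one mitochondrial gene here annotated on the - strand (chromosome M, 13552 to 14070), was at 133.4 RPM in the knockout and 50.5 RPM in APP/PS1 cortex, a ratio of 2.64 (exact 95% interval 2.57 to 2.72). mt-Nd2 was 2.02-fold higher (399.7 against 198.2 RPM) and mt-Nd1 1.92-fold higher (2371 against 1234 RPM), both complex I subunits of the membrane arm. mt-Nd4 (547 against 308.7 RPM) and mt-Nd5 (2248 against 1374 RPM), proton-pumping subunits, were 1.77-fold and 1.64-fold higher. mt-Cytb of complex III was 1.41-fold higher at 3074 against 2185 RPM. mt-Co1 lay nearest to even, at 3039 against 2830 RPM, a ratio of 1.07 (1.068 to 1.079). The genes thus differed unequally: mt-Co1 held 34.6% of all mitochondrial messenger reads in APP/PS1 cortex and 25.7% in the knockout, and mt-Nd1 15.1% and 20.1%. Intervals here and below cover counting error only, since such reads are not independent molecules.

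In hippocampus the same comparison again gave 7 of 7 mitochondrial genes higher in the knockout, 3 at least 1.5-fold (2 with TMM scaling; 11.9% of all measured genes), with a median log2 ratio of 0.47 against 0.05 for all genes. mt-Nd1 led with 1913 against 1001 RPM, 1.91-fold (1.90 to 1.92), before mt-Nd6 with 70.97 against 40.9 RPM (1.74-fold) and mt-Nd4 with 412 against 268.01 RPM (1.54-fold). mt-Nd2 (258.8 against 186.1 RPM) and mt-Nd5 (1698 against 1227 RPM) were 1.39-fold and 1.38-fold higher. mt-Cytb (2558 against 2061 RPM) was 1.24-fold and mt-Co1 (2728 against 2509 RPM) 1.09-fold higher. Each of the 7 genes was higher in 4 of 4 plate numbers here, and in both shared plate numbers in cortex. Plate numbers are technical parts of 1 sample, and neither pair shares a lane. The share of all measured genes that were higher in every plate number was not counted. Both tissues therefore had mt-Co1 nearest to even among these genes, though not the same gene furthest from it.

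In the cortex of C57BL/6 mice, which carry no amyloid transgene, 0 of 7 mitochondrial genes were higher without Apoe and none reached 1.5-fold. The ratios ran from 0.840 for mt-Nd6 (67.9 against 80.9 RPM) to 0.997 for mt-Nd1 (1594 against 1599 RPM), with a median log2 ratio of -0.06. The summed log2 ratio was 0.14 in one shared lane and -0.21 in the other, so that the sign was not the same within lanes. The difference between the knockout effects with and without amyloid was not tested, as each group is 1 sample.

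**Figure D3:**
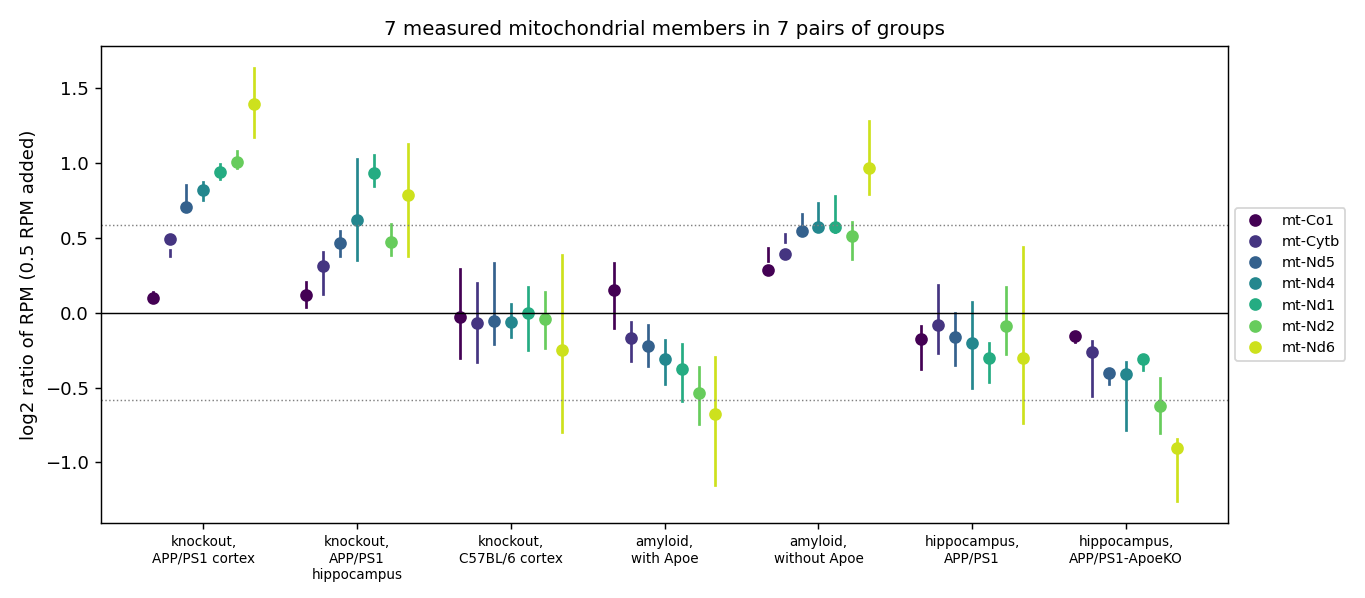
log2 ratio of RPM (0.5 RPM added) of the 7 measured mitochondrial genes in 7 pairs of groups; points are sums over cells, bars the range over plate numbers that both groups share, dotted lines 1.5-fold. mt-Nd6 lies furthest from 0 in cortex (1.39) and mt-Co1 stays between -0.17 and 0.28 in every pair.

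Amyloid was read from APP/PS1 against C57BL/6 cortex, and without Apoe from APP/PS1-ApoeKO against C57BL/6-ApoeKO cortex. With Apoe, 6 of 7 mitochondrial genes were lower in APP/PS1, 1 of them at least 1.5-fold (0 with TMM scaling; 13.7% of all measured genes), with a median log2 ratio of -0.31 against -0.11 for all genes. mt-Nd6 was at 50.5 against 80.9 RPM, mt-Nd2 at 198.2 against 287.8 RPM, and mt-Co1 alone was higher at 2830 against 2545 RPM. Without Apoe, 7 of 7 were higher in the amyloid mice, 1 at least 1.5-fold (11.7% of all measured genes), with a median log2 ratio of 0.54 against 0.05. Here mt-Nd6 was at 133.4 against 67.9 RPM and mt-Nd1 at 2371 against 1594 RPM. These comparisons share groups with the knockout comparisons above, so they are not separate evidence, and neither pair shares a lane.

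Between tissues, 7 of 7 mitochondrial genes were lower in hippocampus than in cortex in both genotypes, except that mt-Co1 was at 0.03 with TMM scaling in APP/PS1-ApoeKO mice, and that in APP/PS1 mice mt-Cytb (0.17) and mt-Nd4 (0.062) were higher in hippocampus within 1 lane and mt-Cytb was at 0.013 without plate number 4. The median log2 ratio was -0.17 in APP/PS1 and -0.40 in APP/PS1-ApoeKO mice, against 0.00 and -0.11 for all measured genes. In APP/PS1 mice 0 genes were at least 1.5-fold lower (5.86% of all measured genes), and the summed log2 ratio was -0.08 and -0.25 within the lanes that both tissues share. In APP/PS1-ApoeKO mice, whose tissues share no lane, 2 of 7 were at least 1.5-fold lower (1 with TMM scaling; 13.8% of all measured genes): mt-Nd6 at 70.97 against 133.4 RPM and mt-Nd2 at 258.8 against 399.7 RPM.

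Nuclear genes were described by complex. In APP/PS1 cortex 44 of 75 measured nuclear genes were higher and 31 lower in the knockout, with 7 at least 1.5-fold higher (22% of all measured genes) and 1 at least 1.5-fold lower (7.31%). Of all measured genes 62.6% were higher in this pair, against 58.7% of the nuclear genes. The median log2 ratio was 0.08, below the 0.17 of all measured genes, and it was -0.17 with TMM scaling (20 higher and 55 lower), which shifted the median of all genes in this pair by -0.25. By complex the medians were 0.11 (I, 33 genes), 0.10 (II, 4), 0.08 (III, 7), -0.03 (IV, 10) and -0.08 (V, 13). In hippocampus 29 were higher and 46 lower, with 1 and 4 past 1.5-fold (11.9% and 8.44% of all genes) and a median of -0.10 against 0.05. There 55.1% of all genes were higher, against 38.7% of the nuclear genes. In C57BL/6 cortex 38 were higher and 37 lower, with 2 past 1.5-fold each way (8.6% and 6.91% of all genes) and a median of 0.01 against 0.02. Here 52.1% of all genes were higher, against 50.7% of the nuclear genes. The nuclear genes as a group were therefore no more often past 1.5-fold upward than genes at large in any of these pairs.

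In the amyloid comparison with Apoe 20 nuclear genes were higher and 55 lower, 0 and 4 past 1.5-fold (6.83% and 13.7% of all genes), with a median log2 ratio of -0.14 against -0.11 for all genes. This was near the background: 40.4% of all measured genes were higher in this pair, 35 nuclear genes lay above the median of all genes and 40 below, and with TMM scaling 35 were higher and 40 lower (median -0.023). Without Apoe 24 were higher and 51 lower, 2 and 3 past 1.5-fold (11.7% and 8.1%), with a median of -0.14 against 0.05 (15 and 60 with TMM scaling). Here 54.2% of all genes were higher, 18 nuclear genes lay above the median of all genes and 57 below, and 13 of 13 complex V subunits were lower, with a median of -0.14. Between tissues, 26 were higher and 49 lower in APP/PS1 hippocampus, 1 and 3 past 1.5-fold (7.18% and 5.86%), at a median of -0.11 against 0.00. In APP/PS1-ApoeKO mice 19 were higher and 56 lower, 0 and 7 past 1.5-fold (6.78% and 13.8%), at a median of -0.23 against -0.11, with complex I at 4 higher and 29 lower. In the latter pair 38.8% of all genes were higher, and with TMM scaling 33 nuclear genes were higher and 42 lower.

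**Figure D4:**
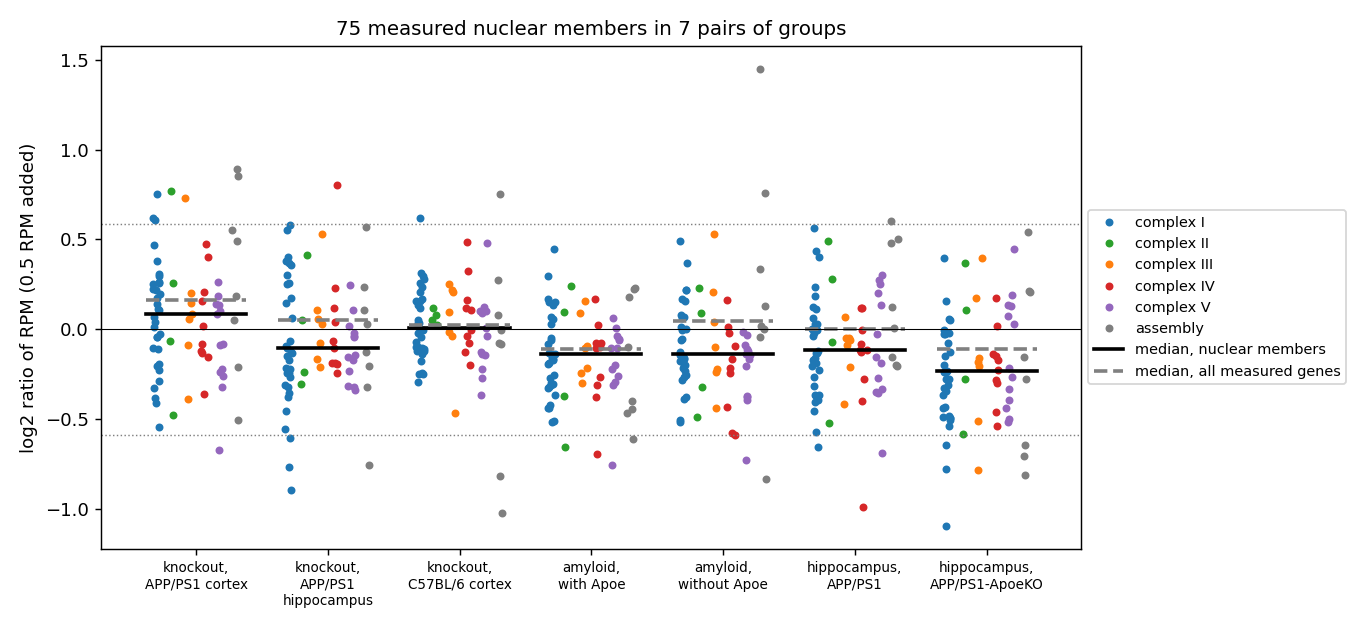
log2 ratio of RPM (0.5 RPM added) of the 75 measured nuclear genes in 7 pairs of groups, coloured by complex; solid lines are their median, dashed lines the median of all 5975 measured genes, dotted lines 1.5-fold. The nuclear median lies between -0.23 and 0.08 and below that of all genes in each pair.

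Some of the single nuclear genes with the furthest ratios are given with their levels. Ndufaf4, an assembly factor of complex I, ranged most among measured nuclear genes: 19.6, 17.5, 36.7, 20.7, 27.2 and 13.1 RPM in the order of groups used above. It was 1.87-fold higher in APP/PS1-ApoeKO than APP/PS1 cortex and 2.07-fold lower in C57BL/6-ApoeKO than C57BL/6 cortex, the latter in 3 of 4 plate numbers. Ndufaf7, which methylates a complex I subunit during assembly, was higher without Apoe in each pair, at 63.8 against 35.04 RPM in APP/PS1 cortex, 74.1 against 49.9 RPM in APP/PS1 hippocampus and 63.6 against 37.5 RPM in C57BL/6 cortex. It was higher in 4 of 4 plate numbers in the latter pair of groups and in hippocampus, and in 1 of 2 in APP/PS1 cortex. Sdhb, the iron-sulfur subunit of complex II, was at 95.99 RPM in APP/PS1 cortex, below the 109.6 to 164.1 RPM of the other groups.

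Atp5c1, the gamma subunit of the ATP synthase, was at 157.7, 194.7, 167.6, 176.2, 266.1 and 220.5 RPM, so that the 4 amyloid groups lay below both C57BL/6 groups. In APP/PS1 cortex it was 1.69-fold lower than in C57BL/6 cortex (1.66 to 1.71), in 4 of 4 plate numbers. Cox7a2 of complex IV was at 53.2 against 86.1 RPM in the same pair, 1.62-fold lower in 4 of 4 plate numbers. Cox5a, also of complex IV, was at 11.5 RPM in APP/PS1 hippocampus, the lowest of its 6 levels, against 23.3 RPM in APP/PS1 cortex. Within the lanes that both tissues share its log2 ratio was -1.92 in one and -0.28, under 1.5-fold, in the other. Ndufs8, a core iron-sulfur subunit of complex I, was at 68.97 against 108.7 RPM between the same tissues and Atp5g3 at 28.7 against 46.6 RPM, both lower in 4 of 4 plate numbers. Within these lanes their log2 ratios were -0.42 and -0.84 for Ndufs8 and -0.83 and -0.56 for Atp5g3, each under 1.5-fold in 1 lane. Ndufb5 and Ndufa12 of complex I were 1.87-fold and 1.72-fold lower without Apoe in APP/PS1 hippocampus (30.4 against 56.8 and 15.6 against 26.8 RPM), in 4 of 4 plate numbers. Ndufv3 was at 71.3 RPM in APP/PS1-ApoeKO cortex and at 33.2 RPM in its hippocampus, 2.15-fold lower. Uqcrb of complex III was at 60.9 RPM in APP/PS1-ApoeKO cortex and between 34.4 and 42.5 RPM elsewhere. Without 1 plate number these log2 ratios came nearest to 0 at -0.59 for Atp5c1, -0.58 for Cox7a2, -0.53 for Cox5a, -0.49 for Ndufs8, -0.52 for Atp5g3 and -0.55 for Ndufa12, and Ndufaf7 in APP/PS1 cortex ran from 0.46 to 1.46.

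Cox6a2, the heart and muscle isoform of a complex IV subunit, followed another order and stayed below the limits for measured genes, at 9.79 RPM on average. Its levels were 27.8 RPM in APP/PS1 cortex, 14.5 in APP/PS1 hippocampus, 5.46 and 1.92 in the APP/PS1-ApoeKO tissues, 5.49 in C57BL/6 and 3.62 in C57BL/6-ApoeKO cortex. With each cell thinned to 100000 reads, 17.0% of APP/PS1 cortex cells had a Cox6a2 read (exact interval 13.03 to 21.7) and 8.46% in APP/PS1 hippocampus (5.44 to 12.4), against 2.82% to 3.68% in the other groups. Unthinned these shares were 17.4%, 9.16% and 2.80% to 4.29%. In all, 8 cells were left out of the thinned shares as too shallow. The intervals of the thinned shares treat the cells of a group as independent, although each group is a single sample. They do not cover the spread between animals. APP/PS1 cortex was 5.06-fold above C57BL/6 cortex (4.76 to 5.37) and 5.09-fold above APP/PS1-ApoeKO cortex (4.598 to 5.64). The log2 ratio of APP/PS1-ApoeKO against APP/PS1 cortex was -2.25, and it was -4.11 without plate number 4 and -1.51 without plate number 3. Cox6a2 (chromosome 7, 128205435 to 128206387, - strand) shares 3.33% of its windows with transcripts of Itgad, and whether counting used strand is not given by these sources.

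The design was also fitted across all genes with edgeR's quasi-likelihood test on the 6 summed groups, with terms for knockout, amyloid and tissue. At an adjusted p under 0.05, 5 of 18171 genes passed for the knockout (0.0275%), and 0% passed for amyloid and for tissue. No nuclear gene of the chain (89 tested) and no mitochondrial gene (8 tested) passed in any contrast. The knockout term takes APP/PS1 and C57BL/6 mice together, whose mitochondrial ratios over all cells went in opposite directions. With a single sum per group, a gene that did not pass cannot be read as unchanged. At an unadjusted edgeR p under 0.05, 4 nuclear genes passed for the knockout, 1 for amyloid and 0 for tissue, and 0 mitochondrial genes in each, against 1383, 808 and 573 genes in all. As shares, these were 4.49%, 1.12% and 0% of the nuclear genes, below the 7.61%, 4.45% and 3.15% of all genes. The 4 were Ndufaf7 (log2 fold change 0.61, SE 0.15), Cox6a2 (-2.10, SE 0.64), Atp5s (1.20, SE 0.39) and Atp5j (-0.41, SE 0.14), each with an edgeR adjusted p of 0.631, and the 1 was Atp5c1 (-0.56, SE 0.14, edgeR adjusted p of 0.917). Of the mitochondrial genes, mt-Nd1 had the lowest edgeR adjusted p for the knockout, 0.633, at a log2 fold change of 0.50 (SE 0.21). DESeq2 called Ndufaf7, Cox6a2 and Atp5s for the knockout (adjusted p of 0.0250, 0.00948 and 0.0401) and Atp5c1 for amyloid (0.0355), where it called 6.47% and 2.47% of genes.

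Across the 6 groups the highest over the lowest level (0.5 RPM added) had a median of 1.49 in the 75 nuclear genes, 2.04 in the 7 mitochondrial genes and 1.70 in all measured genes. Atp5b was the flattest nuclear gene, at 531, 478, 503, 514, 509 and 543 RPM, a ratio of 1.14. mt-Co1 was the flattest mitochondrial gene (1.22) and mt-Nd6 the widest (3.24).

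In single cells, both parts varied without following each other in the amyloid groups. The mitochondrial share of a cell reached 3.51%, 2.94%, 3.63%, 3.74%, 3.77% and 3.42% at most, around medians of 0.796%, 0.711%, 1.11%, 0.949%, 0.888% and 0.816%. Spearman's rho between the nuclear and the mitochondrial share of a cell was 0.00 in both APP/PS1 tissues, -0.02 and -0.03 in APP/PS1-ApoeKO cortex and hippocampus, and 0.25 and 0.30 in C57BL/6 and C57BL/6-ApoeKO cortex. The cells of a group share library and lane, so these are descriptions. The mitochondrial messenger share and the mitochondrial ribosomal RNA share of a cell went together, with rho between 0.70 and 0.82 in the 6 groups, although their group levels did not. The mitochondrial share had a rho of -0.26 to -0.45 with the summed homeostatic markers, and -0.14 to -0.36 with reads per cell. The nuclear share had a rho of 0.24 with the summed activation markers in both APP/PS1 tissues and between -0.11 and 0.11 in the other groups.

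**Figure D5:**
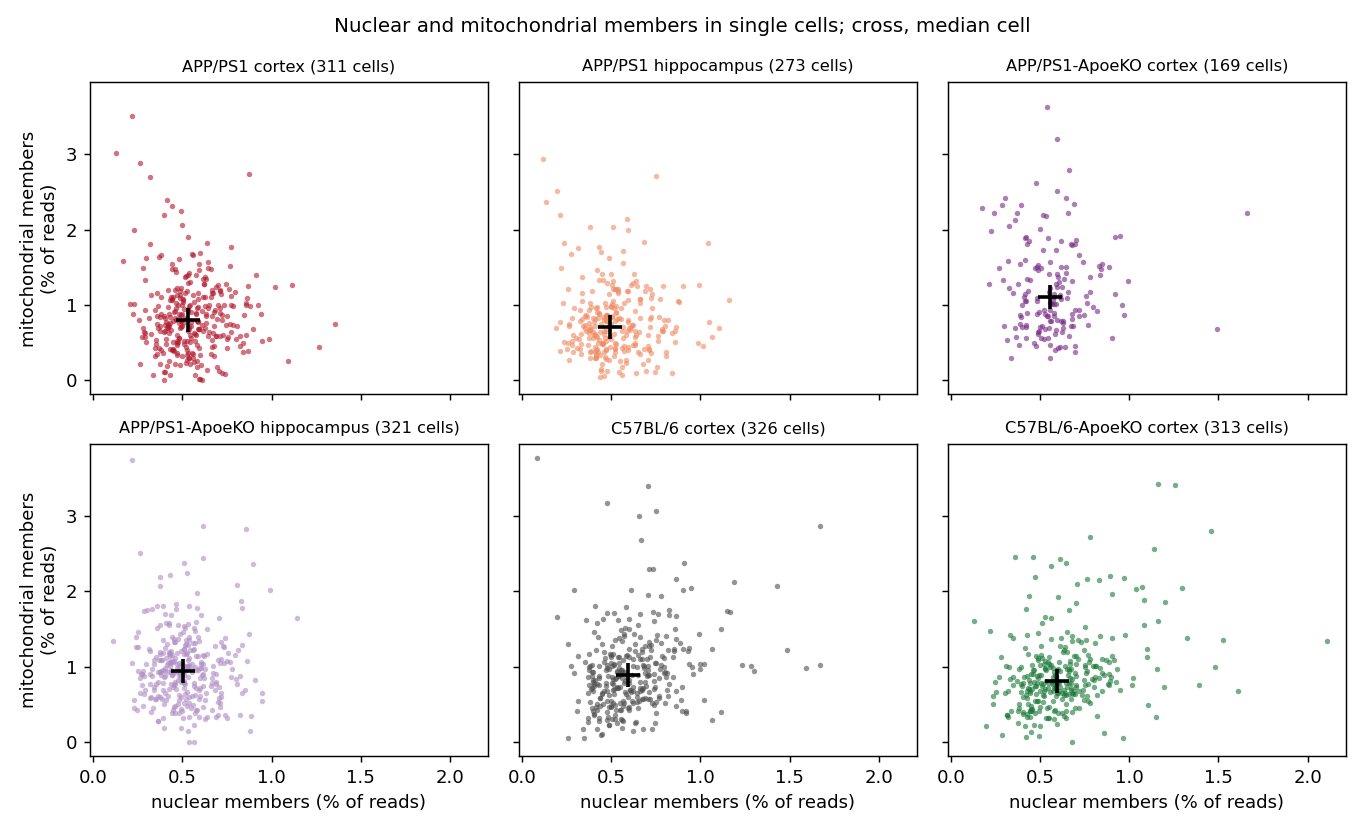
Share of a cell's reads (%) in the nuclear (horizontal) and mitochondrial genes (vertical), one point per cell and one panel per group, with a cross at the medians. The mitochondrial median is 1.11% in APP/PS1-ApoeKO cortex and 0.796% in APP/PS1 cortex, and the nuclear medians lie between 0.493% and 0.594%.

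Genes of the same pathway outside the listed families, from lists chosen for their role, were set beside these. In APP/PS1 cortex, 10 of 14 measured further subunits and carriers were higher in the knockout, 2 past 1.5-fold, with a median log2 ratio of 0.14. Of all measured genes 62.6% were higher in this pair, 22% past 1.5-fold, with a median of 0.17, and with TMM scaling 6 of the 14 were higher and 0 past 1.5-fold. Cycs, the electron carrier cytochrome c, was 0.38 and 0.86 higher on the log2 scale without Apoe in APP/PS1 cortex and hippocampus. Of 10 measured genes that express or keep mitochondrial DNA, 6 were higher in APP/PS1 cortex without Apoe (3 past 1.5-fold upward and 1 downward, against 22% and 7.31% of all genes, median 0.50; 2 and 2 with TMM scaling) and 5 in hippocampus (3 and 1, against 11.9% and 8.44%, median 0.04). Pnpt1, a nuclease of mitochondrial RNA, had log2 ratios of 1.89 and 0.80 in these tissues and -0.02 in C57BL/6 cortex. The 4 measured regulators of mitochondrial biogenesis were all higher in APP/PS1 cortex without Apoe (median 0.47; 3 of 4 with TMM scaling), 1 past 1.5-fold, Gabpb1 at 1.24. Gabpb1 was near even in the other knockout pairs, at -0.04 in APP/PS1 hippocampus and -0.05 in C57BL/6 cortex. Nrf1, of the same list, was at 0.39 in APP/PS1 cortex and at 0.75 and 0.76 in these pairs. Of 15 measured enzymes of the tricarboxylic acid cycle, 9 were higher and 6 lower (0 and 1 past 1.5-fold, against 22% and 7.31% of all genes, median 0.22), and with TMM scaling 6 were higher and 9 lower.

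Glycolytic genes were counted in the same way. With amyloid and Apoe 11 of 11 measured glycolytic genes were higher, where 40.4% of all measured genes were, with 2 past 1.5-fold (6.83% of all genes; 4 with TMM scaling), a median log2 ratio of 0.35 and Pfkl at 1.47. Without Apoe 11 of 11 were lower with amyloid, where 54.2% of all genes were higher, with 3 past 1.5-fold (8.1% of all genes) and a median of -0.26. Neither amyloid pair shares a lane. Without Apoe 2 of 11 were higher in APP/PS1 cortex (median -0.20), 8 in APP/PS1 hippocampus (0.19) and 10 in C57BL/6 cortex (0.42), the latter with Aldoa at 1.25, where 62.6%, 55.1% and 52.1% of all genes were higher. The measured activation markers were lower without Apoe in APP/PS1 cortex (0 of 5 higher, 2 past 1.5-fold, against 7.31% of all genes, median -0.55; 4 past 1.5-fold with TMM scaling), and Junb, an immediate early gene, was higher at log2 ratios of 1.59 in cortex and 1.26 in hippocampus. The part of activation state and of handling in the values of the respiratory chain was not tested.

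Promoters of the nuclear genes were read from RefSeq (GRCm38.p6, 300 bases around each start), where 77 of the 94 were found. They were searched on both strands for short cores of motifs bound by known regulators of these genes. Of 55 measured subunits with a promoter, 14.5% held the core GCATGCG of NRF1, against 8.30% of 4688 measured genes, 23.6% the ETS core CCGGAAG of GABPA against 25.02%, 18.2% AAGATGG of YY1 against 10.4%, 5.45% AAGGTCA of ERR-alpha against 3.86%, and GGGCGG of SP1 was in 22 of the 55 against 71.2% of measured genes. A match of this kind is a description of letters and not a bound site. 2 promoters are shown as examples, that of Atp5j, the only nuclear gene here with NRF1, GABPA and YY1 cores together (chr16:84834927-84835226, - strand; its other RefSeq start held 0 of these), and that of Sdhb (chr4:140961021-140961320, + strand), which stood low in APP/PS1 cortex; capitals mark these cores, and overlapping NRF1 cores run together:

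Atp5j: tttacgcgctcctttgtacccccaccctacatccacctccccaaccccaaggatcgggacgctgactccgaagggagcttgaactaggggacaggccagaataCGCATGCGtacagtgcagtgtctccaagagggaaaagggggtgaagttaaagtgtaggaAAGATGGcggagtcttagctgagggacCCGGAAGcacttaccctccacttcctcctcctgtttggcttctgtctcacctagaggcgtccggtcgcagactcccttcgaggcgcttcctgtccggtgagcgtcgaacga
Sdhb: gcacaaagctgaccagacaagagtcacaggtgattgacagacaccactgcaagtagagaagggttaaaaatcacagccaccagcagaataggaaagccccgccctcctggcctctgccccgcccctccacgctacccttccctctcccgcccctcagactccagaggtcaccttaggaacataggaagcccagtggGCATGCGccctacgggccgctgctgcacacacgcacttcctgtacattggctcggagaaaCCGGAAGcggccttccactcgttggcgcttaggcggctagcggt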

How the data were processed

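The authors deposited whole-number read counts per gene and cell, made from SmartSeq2 libraries. The submitters' processing notes name the build mm10 and, without saying what each did, Seurat 2.3.1, featureCounts 1.5.1 and STAR 2.5.2; strand, annotation and the handling of reads with several matches are not given in the sources used here. A deposited table of normalized values was not used.

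Counts of the 1713 cells whose labels give a depth were summed per group and divided by all reads (RPM). Pairs were compared by ratios with exact 95% intervals, and log2 ratios had 0.5 RPM added. edgeR 4.0.16 (TMM, quasi-likelihood, Benjamini-Hochberg) was fitted to the 6 sums in R 4.3.3 and DESeq2 1.42.0 as an alternative. The ratio intervals were run on simulated independent reads, and the edgeR fit on counts simulated with the spread it had estimated. Neither run can show how well the intervals or the fit hold for these reads, which are not independent molecules. Lengths are the union of exons in GENCODE M21. Considered for naming were all mitochondrial genes and the 3 highest nuclear genes per length in each complex and among assembly factors. Further ones were the 3 highest and 3 lowest measured nuclear genes by ratio in each pair, isoform sets and genes without reads. Up to 2 genes past 1.5-fold per list were added. Not all of these genes are given in the text. Ndufaf2, Sdhaf1, Atp5s and Atp5j were chosen after their values were seen. The genes and lists were chosen with earlier results of these data known. The 165 cells without a labelled depth entered as an alternative.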

Additional observations from a re-analysis of the deposited data

Results flagged for a closer look

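mt-Nd6 was flagged because it differed at least 1.5-fold in opposite directions in the amyloid comparisons with and without Apoe. With Apoe its log2 ratio of APP/PS1 against C57BL/6 cortex was -0.68, lower in 4 of 4 plate numbers, and without Apoe that of APP/PS1-ApoeKO against C57BL/6-ApoeKO cortex was 0.97, higher in both shared plate numbers. With TMM scaling the former was under 1.5-fold. Over the plate numbers left out, it ran from -0.88 to -0.50, under 1.5-fold at the latter, and the ratio without Apoe ran from 0.86 to 1.09. The difference between these comparisons was not tested, since each group is 1 sample, and neither pair shares a lane.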

How the results depend on the processing

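No paired analysis was possible because the labels name no animals and replicate numbers only count wells. Of 84 alternative values, the summed mitochondrial log2 ratio kept its direction in 82; the nuclear median kept it in 78 of 84. Scaled to reads outside mitochondrial genes and ribosomal RNA, the mitochondrial values were 0.44 (knockout, APP/PS1 cortex), -0.071 (amyloid with Apoe) and 0.41 (amyloid without Apoe), and the nuclear medians -0.17 (amyloid without Apoe) and -0.19 (tissue, APP/PS1-ApoeKO). With TMM scaling, the mitochondrial values were 0.28 and 0.34 (knockout, APP/PS1 cortex and hippocampus), -0.015 and 0.35 (amyloid with and without Apoe) and -0.11 (tissue, APP/PS1-ApoeKO), and the nuclear medians -0.17 and -0.036 (knockout, APP/PS1 and C57BL/6 cortex), -0.23 (amyloid without Apoe) and -0.048 (tissue, APP/PS1-ApoeKO). As the mean of per-cell RPM, the mitochondrial values were 0.50, 0.33 (knockout, APP/PS1 cortex and hippocampus) and 0.40 (amyloid without Apoe), and the nuclear median of the latter was -0.19. With the cells of no labelled depth, the mitochondrial values were 0.45 (knockout, APP/PS1 cortex) and 0.36 (amyloid without Apoe). As medians over cells, chosen after seeing the data, the mitochondrial value was 0.47 (knockout, APP/PS1 cortex) and the nuclear values 0.035 (knockout, APP/PS1 hippocampus), -0.093 (amyloid without Apoe) and -0.14 (tissue, APP/PS1-ApoeKO). Within lanes, the knockout in C57BL/6 cortex gave a nuclear median of 0.047 and a mitochondrial value of 0.14 in one lane, and the mitochondrial value for tissue in APP/PS1 was -0.076 and -0.25. Leaving out each plate number gave mitochondrial values of 0.52 to 0.54 (knockout, APP/PS1 cortex) and 0.38 to 0.49 (amyloid without Apoe), and nuclear medians of -0.16 to -0.11 (amyloid without Apoe) and -0.27 to -0.16 (tissue, APP/PS1-ApoeKO). The cause of these shifts was not tested.

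In single genes, the tissue ratio of Sdhaf2 in APP/PS1 reversed within 1 lane (-0.26). Over the plate numbers left out, the tissue ratios in APP/PS1-ApoeKO ran from -1.08 to 0.41 for Ndufaf8, -1.88 to 0.25 for Cox6a2 and -1.72 to 0.37 for Cox6b2, each reversed without plate number 4. The amyloid ratios without Apoe ran from -0.29 (without plate number 3) to 1.88 for Ndufaf3 and from -0.73 (without plate number 4) to 1.19 for Cox6b2. For the knockout, edgeR called 0.0275% of genes, 0% on the 4 cortex or the 4 APP/PS1 sums, and DESeq2 6.47%, 3 of them in the respiratory chain. For amyloid and tissue edgeR called 0% and DESeq2 2.47% and 1.22%, 1 and 0 of them in the chain. With 6 sums and no animals named, p-values measure the spread between sums, which may be technical.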
